A study of Homo sapiens with 21 samples.

Results

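The clone PK7, a stable clone of the human glioblastoma cell line U-87MG that carries parkin, was compared with V22, a stable clone of the same line that carries the empty vector. The members of the comparison were the arrays titled PK7 sets 1 to 3 and V22 sets 4 to 6, that is 6 of the 21 arrays of the study, and they were described across 18374 genes, each represented by 1 probe set. The 3 clones of the study with the empty vector were V8, V17 and V22, and the 3 with parkin were PK7, PK19 and PK25, all seeded at 500000 cells and grown for 24 h before total RNA was extracted. PK7, PK19, PK25 and V22 sets 4 to 6 share 1 prefix in the names of their array files, and V8, V17 and V22 sets 1 to 3 share another. These were read as a second and a first series of arrays, which is an assumption. No treatment was given besides the introduced construct. PK7 is 1 clone and V22 is 1 clone, so a difference between them cannot be told apart from a difference between any other 2 clones of the line. Nothing in the labels says that the arrays of a clone came from separate cultures. The p-values therefore measure only the spread between arrays, which may be technical.

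Parkin is a ubiquitin ligase that is recruited to damaged mitochondria by the kinase PINK1, ubiquitinates proteins of their outer membrane and so marks them for removal by mitophagy. Its gene is deleted or silenced in a share of gliomas, and re-expression in glioma cells is used to ask which transcripts and growth properties go with the protein. U-87MG is a mesenchymal-type line known to lack the 9p21 genes and to express little glial fibrillary acidic protein. The transcript of parkin itself was not analysed here.

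The arrays carried the marker pattern of the line. VIM, the intermediate filament vimentin, lay between 12.46 and 12.74 log2 intensity on the 6 arrays, and GFAP, the astrocyte filament, between 6.26 and 6.50. The 9p21 genes CDKN2A, CDKN2B and MTAP were dim on the arrays of both clones, at 5.60 to 6.01, 5.87 to 6.18 and 3.97 to 4.16. CD44, a hyaluronan receptor, was bright at 12.09, 12.13 and 12.12 in PK7 and 11.66, 11.56 and 11.67 in V22, a log2 difference of 0.49 ± 0.09 (SE, adjusted p = 0.0021). Array medians of all probe sets lay between 6.21 and 6.37 over the 21 arrays. PK7 set 2 stood further from its clone than any other array of the series, with a root mean square deviation from the clone mean of 0.241 against 0.0813 to 0.192 for the other arrays there. Of the 104 named genes that were called between PK7 and V22 by the rule given next, 14 fell short of it without that array, and their values are given both ways: ABCC3, CFI, COL5A1, ENO2, FAP, GUSB, H4C4, H4C13, IGFBP4, LAMB2, MAGED1, MCM5, MIEF1 and PDK3. List counts that move by over 1.5 times when 1 array is left out are given with the arrays that move them.

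Between PK7 and V22, 523 genes were called, meaning a limma adjusted p under 0.05 and a difference of at least 2-fold. This was 2.85% of the genes tested. Of these, 329 were higher in PK7 (1.79% of all genes) and 194 were lower (1.06%). At the adjusted p alone, 2840 genes passed (15.5%), 1351 of them higher (7.35%) and 1489 lower (8.1%), and 5184 had an unadjusted p under 0.05. The median difference over all genes was 0.00581 on the log2 scale. For 119 of the called genes both clone means were under 7. All 523 called genes had PK7 and V22 arrays that did not overlap, as did 36.9% of all genes.

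**Figure D1:**
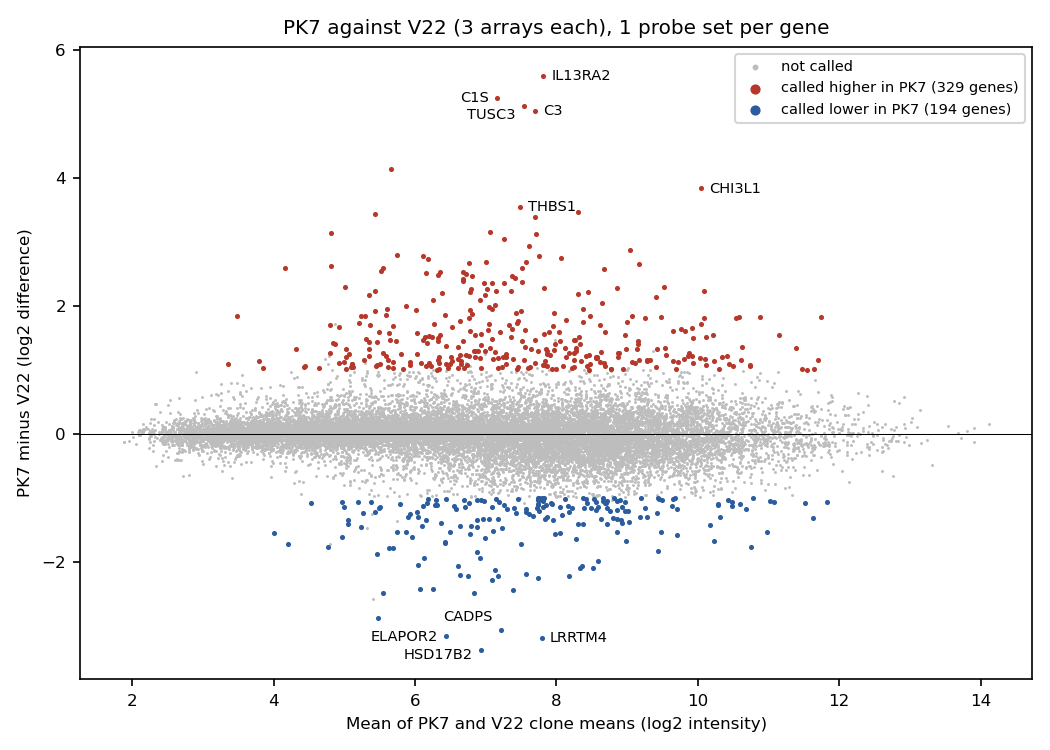
Each point is a gene. The horizontal axis is the mean of the PK7 and V22 clone means in log2 intensity and the vertical axis the log2 difference PK7 minus V22 (3 arrays per clone). The 329 genes called higher are red and the 194 called lower are blue. Rises reach further from 0 than falls: IL13RA2 lies at 5.59 and HSD17B2 at -3.39.

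IL13RA2 rose most, followed by C1S, TUSC3 and C3. IL13RA2, a decoy receptor for interleukin 13 that is common on glioblastoma cells, read 10.74, 10.42 and 10.68 on the PK7 arrays and 5.10, 5.11 and 4.85 on the V22 arrays. It was 48.3-fold higher in PK7, a log2 difference of 5.59 ± 0.13 (SE, n = 3 arrays per clone, adjusted p = 2.2e-10). The arrays of each clone lay close together and the clones stood far apart. IL13RA2 was also high in the vector clone V8, at a mean of 11.07, and in PK19 (9.47) and PK25 (10.29), while V17 (5.24) and V22 of the first series (5.21) were low. The gene was thus high in 1 of 3 vector clones and in 3 of 3 parkin clones.

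TUSC3, a subunit of the oligosaccharyltransferase that attaches sugars to new proteins, read 10.51, 9.40 and 10.39 in PK7 and 5.01, 5.08 and 4.86 in V22. The log2 difference was 5.12 ± 0.33 (SE, adjusted p = 9.8e-07). Its mean was 6.41 in PK19, 4.97 in PK25, 4.99 in V8 and 4.86 in V17, so that PK7 was high and the other clones were low. CHI3L1, a secreted chitinase-like glycoprotein used as a marker of mesenchymal glioma, read 11.38, 13.04 and 11.44 in PK7 and 7.68, 8.92 and 7.77 in V22. The second PK7 array and V22 set 5, which follow each other in the array file numbering, were the highest of their clones. CHI3L1 averaged 9.93 in V22 of the first series and 10.17 in V17, above its level on V22 sets 4 to 6. The log2 difference of CHI3L1 was 3.83 ± 0.68 (SE, adjusted p = 0.0021).

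THBS1, thrombospondin 1, a matrix protein that restrains angiogenesis, read 8.27, 11.49 and 8.00 in PK7 and 5.94, 5.36 and 5.83 in V22. PK7 set 2 was the highest by far, and the difference of 3.54 ± 0.66 (SE, adjusted p = 0.0029) became 2.42 without it. MMP3, the matrix protease stromelysin 1, read 10.15, 9.69 and 10.27 in PK7 and 7.04, 5.66 and 7.00 in V22. TNFRSF9, a costimulatory receptor of the tumour necrosis factor family also called 4-1BB, read 9.44, 9.29 and 9.45 against 6.12, 5.70 and 6.22. In both genes the PK7 arrays lay close together, and V22 set 5 was the lowest of its clone. The rest of the 15 largest rises, apart from C1S, C3, C1R and HLA-DQA1, which are given with their lists, were EMILIN2, a matrix glycoprotein, at 3.12, SERPINB7, a protease inhibitor, at 3.05, FBXO32, a muscle atrophy ubiquitin ligase, at 2.88, FADS2, a fatty acid desaturase, at 2.77 and TMEM45A at 2.74.

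HSD17B2 fell most, followed by LRRTM4, ELAPOR2 and CADPS. HSD17B2, the enzyme that turns oestradiol into oestrone, read 5.23, 5.26 and 5.20 in PK7 and 8.68, 8.46 and 8.72 in V22, and fell by 3.39 ± 0.16 (log2, SE, adjusted p = 5.6e-08). LRRTM4, a synaptic adhesion protein, read 6.29, 5.79 and 6.49 against 9.39, 9.21 and 9.57. ELAPOR2 read 5.08, 4.71 and 4.76 against 8.05, 7.97 and 8.04. In these 3 genes the PK7 arrays were low, and those of V22 lay within a narrow range. CADPS, which primes dense-core vesicles for release, fell by 3.07. EPHA5, an ephrin receptor, fell by 2.49, and LRFN5, a synaptic adhesion protein, by 2.23. GABRA3 and GABRQ, GABA-A receptor subunits named for the size of their falls, fell by 2.19 and 2.08. The receptor family was not tested as a list. GABRQ read 7.32, 7.17 and 7.46 in PK7 and 9.41, 9.36 and 9.42 in V22. SPRY4, an inhibitor of receptor tyrosine kinase signalling, fell by 2.22, ADGRL2, the adhesion receptor latrophilin 2, by 2.10, and ADAMTS18, a secreted protease, by 2.13.

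**Figure D2:**
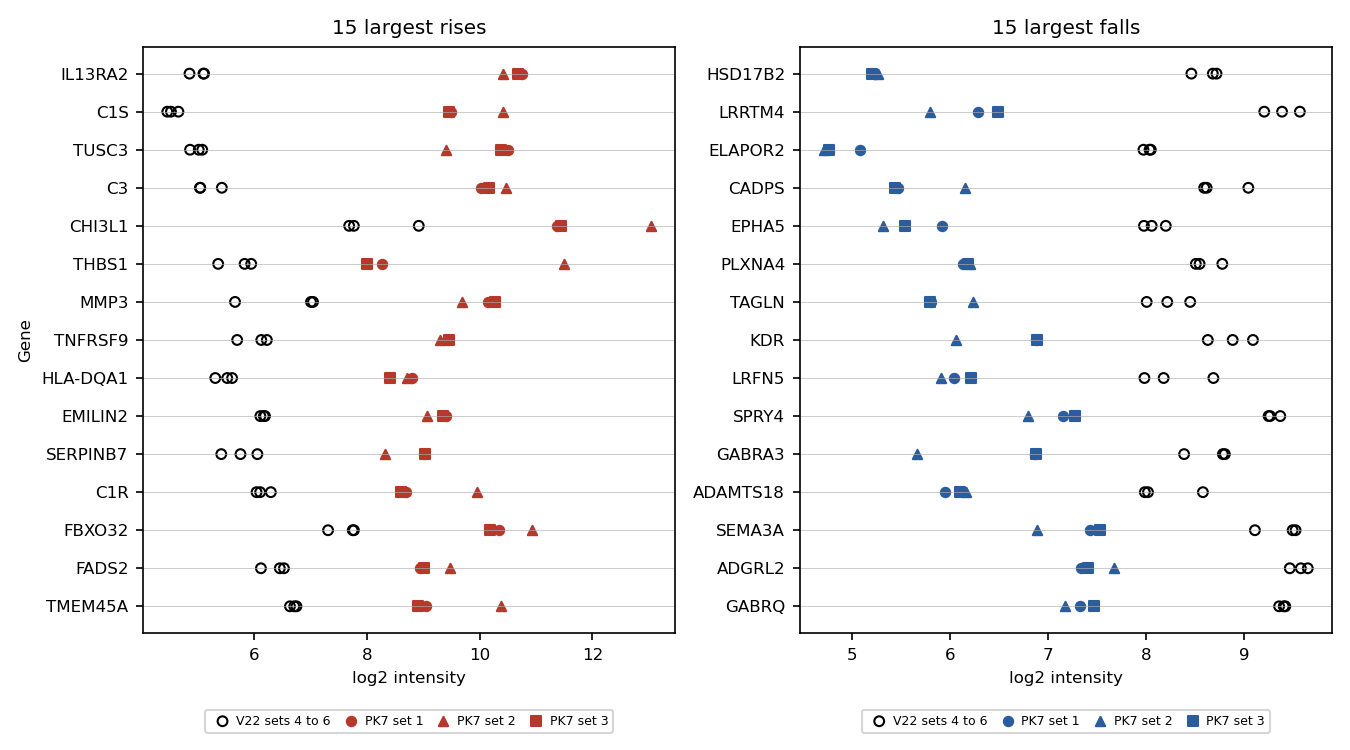
Values of the 15 largest rises (left) and 15 largest falls (right) by array, in log2 intensity. Open circles are V22 sets 4 to 6, and filled circles, triangles and squares are PK7 sets 1, 2 and 3. The genes were chosen so that the open and filled symbols do not overlap in any row. The triangle of PK7 set 2 lies apart from the other PK7 arrays in THBS1 (11.49 against 8.27 and 8.00), CHI3L1 and TMEM45A.

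Genes were then grouped by 45 lists of textbook pathways and markers. Across all genes, 7.35% passed as higher and 8.1% as lower, and the counts below are set beside these shares. The shares include dim genes, which passed less often than brighter ones. In all 41 DNA replication and all 40 mitosis genes the higher clone mean was above 7, as in 38 of 39 cytosolic ribosomal protein genes. Lists made up mostly of such genes would be set against larger shares if dim genes were left out. Complement, the cascade of plasma proteins that tags targets for lysis and clearance, had 9 of 17 measured genes higher and 1 lower, with 7 called, at 1.13 to 5.25, and a list median of 0.54. C1S, a protease of the first complement component, read 9.50, 10.41 and 9.46 in PK7 and 4.65, 4.52 and 4.46 in V22, a difference of 5.25 ± 0.21 (SE, adjusted p = 2.2e-08). C1R, the protease that activates it, read 8.69, 9.96 and 8.60 against 6.10, 6.04 and 6.29. C3, on which the pathways of the cascade converge, read 10.02, 10.47 and 10.16 against 5.42, 5.04 and 5.04, a difference of 5.05 ± 0.26 (SE, adjusted p = 1.1e-07). The initiating proteases and the central component were all well above V22. CFI, the protease that inactivates C3b, rose by 1.51 (adjusted p = 0.019), and by 0.97 without PK7 set 2. Without V22 set 4 or V22 set 6 the count of complement genes lower was 0. With V22 sets 1 to 3 in place of sets 4 to 6 the difference of CFI was 0.86, adjusted p = 0.078, and without V22 set 4 or V22 set 6 its adjusted p was 0.069 or 0.055. The mean over the list was 7.55, 7.88 and 7.60 on the PK7 arrays, 6.45, 6.46 and 6.50 on V22 sets 4 to 6, and 7.14, 7.21 and 7.15 in the vector clone V8.

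Targets of NF-kB, with cytokines and chemokines, had 17 of 38 measured genes higher and 1 lower, and 11 were called, at 1.08 to 2.69. The list median was 0.44. CXCL8, the neutrophil chemokine interleukin 8, read 8.39, 8.26 and 8.39 in PK7 and 5.70, 5.50 and 5.78 in V22. TNFAIP3, the ubiquitin-editing inhibitor of NF-kB known as A20, read 8.48, 8.45 and 8.50 against 6.36, 6.32 and 6.04. In both genes the arrays of each clone lay close together, far closer than the clones to each other. ICAM1, an adhesion molecule for leukocytes, rose by 2.10 and TNFAIP2 by 1.95. CXCL8 was also higher in V8 than in V22 of the first series, by 2.80. Of the 39 interferon response genes measured, 6 were higher and 2 lower (1 without V22 set 4), with a median of 0.11, and the 2 called were MX2, at 1.33, and TRIM22, at 1.28.

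MHC genes, which present peptides to T cells, had 5 of 12 measured members higher, and 4 were called, all of class II. The 12 hold no class I heavy chain gene, so class II was not compared with class I. CIITA, the activator of class II genes, differed by 0.155 (adjusted p = 0.41). HLA-DQA1 read 8.79, 8.71 and 8.40 in PK7 and 5.61, 5.31 and 5.52 in V22, a difference of 3.16 ± 0.16 (SE, adjusted p = 1e-07). HLA-DPB1 read 9.18, 9.71 and 9.31 against 7.41, 6.71 and 7.55. HLA-DPA1 rose by 1.54 and HLA-DMB, which loads class II molecules, by 1.20. These genes lie on chromosome 6 among neighbours whose median difference was between -0.55 and -0.52, so they were higher where the genes beside them were mostly lower. The HLA genes resemble one another, and probes may share signal between them.

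Targets of NRF2, the transcription factor of the antioxidant response, had 13 of 29 measured genes higher. This count was 7 without PK7 set 1 or V22 set 5, 8 without PK7 set 3 or V22 set 6, and 9 and 14 without V22 set 4 and PK7 set 2. Of the 13, 6 were called, at 1.00 to 2.36 (3 with each array centred on its median), and the list median was 0.44. AKR1C2 and AKR1C3, aldo-keto reductases of steroid and carbonyl metabolism, read 8.27, 8.24 and 8.30 against 6.26, 5.52 and 5.95, and 10.48, 10.57 and 10.40 against 8.43, 8.10 and 8.50. ABCC2, an exporter of conjugated drugs, read 10.08, 9.70 and 10.21 against 7.84, 7.51 and 7.80. V22 set 5 was the lowest V22 array in all 3 genes, as it was for the list mean (8.95, 8.56 and 8.91 in V22 against 9.52, 9.27 and 9.51 in PK7). ABCC3, another exporter, rose by 1.01, by 0.77 without PK7 set 2 and by 0.99 without V22 set 6. AKR1C1, AKR1C2 and AKR1C3 are near copies of one another, so their probe sets may not separate them. The 250 bases before the starts of AKR1C1 and AKR1C2 share a run of 245 identical bases. The antioxidant response element core TGACNNNGC, searched on both strands of the 250 bases before the start in RefSeq's GRCh38.p14 promoters, was in 28.6% of the 21 list members with a promoter and in 11.8% of all 14208 genes with one. It was in 10% of the 10 members that passed and in 45.5% of the 11 that did not.

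The hypoxia-inducible factors switch on glycolysis, matrix cross-linking and angiogenesis when oxygen is low. Their targets had 15 of 33 measured genes higher and 32 of 33 above 0, against 9391 of all 18374 genes above 0. The target below 0 was VEGFA, an angiogenic growth factor, at -0.023 (adjusted p = 0.97). Of the 15, 11 were called, at 1.01 to 2.74, and the list median was 0.78. STC2, a secreted glycoprotein of calcium balance, read 9.24, 10.57 and 9.18 in PK7 and 7.87, 7.35 and 7.67 in V22. LOX and LOXL2, enzymes that cross-link collagen, read 11.04, 12.26 and 11.04 against 9.79, 9.39 and 9.74, and 11.54, 12.29 and 11.56 against 10.00, 9.90 and 10.03. TMEM45A, a transmembrane protein induced by low oxygen, read 9.04, 10.37 and 8.90 against 6.63, 6.71 and 6.75. In each of the 4, PK7 set 2 was the highest array, and the clones did not overlap, as in all called genes. The list median was 0.55 without PK7 set 2, where 9 genes passed and 7 were called. Without V22 set 4, 9 passed, and without V22 set 6, 8 passed and 7 were called. Without PK7 set 2 and V22 set 5, 5 passed and LOX had an adjusted p of 0.052. The list mean varied among the arrays of several clones: 9.16, 9.86 and 9.10 in PK7, 9.13, 10.01 and 9.10 in PK19, and 8.62, 9.26 and 8.79 in V22 sets 1 to 3, where the second set was again highest, but 8.49, 8.54 and 8.48 in V22 sets 4 to 6. With V22 sets 1 to 3 as the control, the list median was 0.26 and 7 genes passed. The part of the culture or of the set in these values was not tested.

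The core of the hypoxia response element (ACGTG or GCGTG, on either strand, so that CACGT and CACGC count as well) was in the 250 bases before the start of 74.1% of the 27 list members with a promoter in RefSeq (GRCh38.p14) and of 51.2% of all 14208 genes with one. It was in 63.6% of the 11 members that passed and in 81.2% of the 16 that did not. The windows of 3 of the 4 named genes of this list are shown, from 250 bases before the start to the base before it, with each match in capitals, to show where the matches lie in genes with large rises. LOX (chr5:122078260-122078509, minus strand) holds 4 matches, STC2 (chr5:173328415-173328664, minus strand) holds 3 (overlapping matches counted), and TMEM45A (chr3:100492369-100492618, plus strand) holds 0. In STC2 the matches crowd at the far end of the window, and in LOX they are spread over it. A match is a run of letters and not a bound site.
LOX: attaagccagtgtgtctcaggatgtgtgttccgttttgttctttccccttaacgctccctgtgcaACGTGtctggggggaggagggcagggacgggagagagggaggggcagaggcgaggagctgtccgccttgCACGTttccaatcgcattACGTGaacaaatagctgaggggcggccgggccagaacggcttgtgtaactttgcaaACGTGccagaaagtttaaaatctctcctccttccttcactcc
STC2: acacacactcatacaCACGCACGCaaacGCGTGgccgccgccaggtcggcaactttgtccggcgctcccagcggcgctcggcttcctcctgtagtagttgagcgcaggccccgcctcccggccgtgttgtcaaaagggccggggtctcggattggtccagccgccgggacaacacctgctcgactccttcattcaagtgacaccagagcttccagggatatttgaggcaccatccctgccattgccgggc
TMEM45A: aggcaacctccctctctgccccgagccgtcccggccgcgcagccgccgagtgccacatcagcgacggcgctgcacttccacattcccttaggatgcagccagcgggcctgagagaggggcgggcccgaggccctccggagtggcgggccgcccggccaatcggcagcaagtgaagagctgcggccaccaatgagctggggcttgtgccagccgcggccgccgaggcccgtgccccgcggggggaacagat

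Other lists of metabolism and stress had fewer called members. Glycolysis and lactate genes had 7 of 21 measured members higher and a median of 0.31, and the 2 called were ENO2, neuronal enolase, and PDK3, which inhibits pyruvate dehydrogenase, both at 1.19. They differed by 0.93 and 0.87 without PK7 set 2, and with V22 sets 1 to 3 by 0.77 and 0.89, so that the count called was 0 in each case. ENO2 lies among chromosome 12 neighbours with a median of 0.35, and PDK3 had an adjusted p of 0.12 without PK7 set 2 and V22 set 5. Of 30 genes of the unfolded protein and ATF4 response, 5 were higher and 3 lower, with STC2 the only one called. The count higher was 3 without any 1 of PK7 sets 1 and 2 and V22 sets 4, 5 and 6, and the count lower 1 without V22 set 4. Of the cholesterol and fatty acid synthesis genes 4 of 24 were higher and 6 lower, and FADS2 was the only one called. The count lower was 2 without V22 set 4 or V22 set 6 and 3 without PK7 set 2 or PK7 set 3, and the count higher was 2 without V22 set 5. The list median of 0.02 was -0.14 without PK7 set 2. Lysosome genes had 16 of 40 measured members higher and 4 lower, with a median of 0.32. Without V22 set 5 the count higher was 10, and without PK7 set 2 and V22 set 5 together it was 8, with 1 called. The cathepsins CTSS, CTSO and CTSD, which degrade proteins in lysosomes, rose by 2.37, 1.28 and 1.16, and GUSB, the lysosomal beta-glucuronidase, fell by 1.00. The GUSB fall was under 2-fold without any 1 of PK7 sets 2 and 3 and V22 sets 5 and 6, at -0.99 to -0.98. Without PK7 set 2 and V22 set 5 together, CTSO had an adjusted p of 0.069. CTSS read 8.56, 8.78 and 8.77 in PK7 and 6.26, 6.32 and 6.40 in V22.

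Genes of mitophagy and mitochondrial dynamics, the processes in which parkin acts, had 3 of 32 measured members higher (1 without V22 set 5) and 3 lower, with a median of 0.02. The 1 called gene was MIEF1, which recruits the fission factor DRP1. It read 7.54, 7.13 and 7.49 in PK7 and 8.56, 8.26 and 8.58 in V22, a fall of 1.08 ± 0.14 (log2, SE, adjusted p = 0.00019). The fall was 0.95 without PK7 set 2 and 0.79 with V22 sets 1 to 3, both under 2-fold with an adjusted p under 0.05. MIEF1 lies on chromosome 22, where the median difference of its 50 neighbours was -0.56. Oxidative phosphorylation genes had 2 of 40 lower, NDUFA5 by 0.39 and ATP5PO by 0.34 (adjusted p = 0.039 and 0.041), and 0 higher. NDUFA5 is the first of 52 neighbouring expressed genes of chromosome 7 with a median of -0.302. ATP5PO lies on chromosome 21, where the median of expressed genes was -0.305. Without PK7 set 2 the counts were 0 lower and 2 higher. The count lower was also 0 without any 1 of PK7 set 3 and V22 sets 4, 5 and 6. ATP5PO no longer passed in each of the 6 leave-one-array-out fits and with a replicate block (adjusted p = 0.051), and NDUFA5 no longer passed without any 1 of PK7 sets 2 and 3 and V22 sets 4, 5 and 6. Proteasome genes had 1 of 28 lower, PSMC4 by 0.42 (2 genes lower without PK7 set 1). The adjusted p of PSMC4 was 0.063 without V22 set 4 and 0.061 without V22 set 6. PSMC4 lies on chromosome 19, where the median of expressed genes was -0.239. Cytosolic ribosomal protein genes had 5 of 39 lower and a median of -0.13. The count was 2 without any 1 of PK7 set 3 and V22 sets 4, 5 and 6, and 3 without PK7 set 2. Of these, RPL3 fell by 0.59 among chromosome 22 neighbours at -0.55, and RPL31 fell by 0.65, with an adjusted p of 0.054 without PK7 set 2 and 0.063 without V22 set 5.

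**Figure D3:**
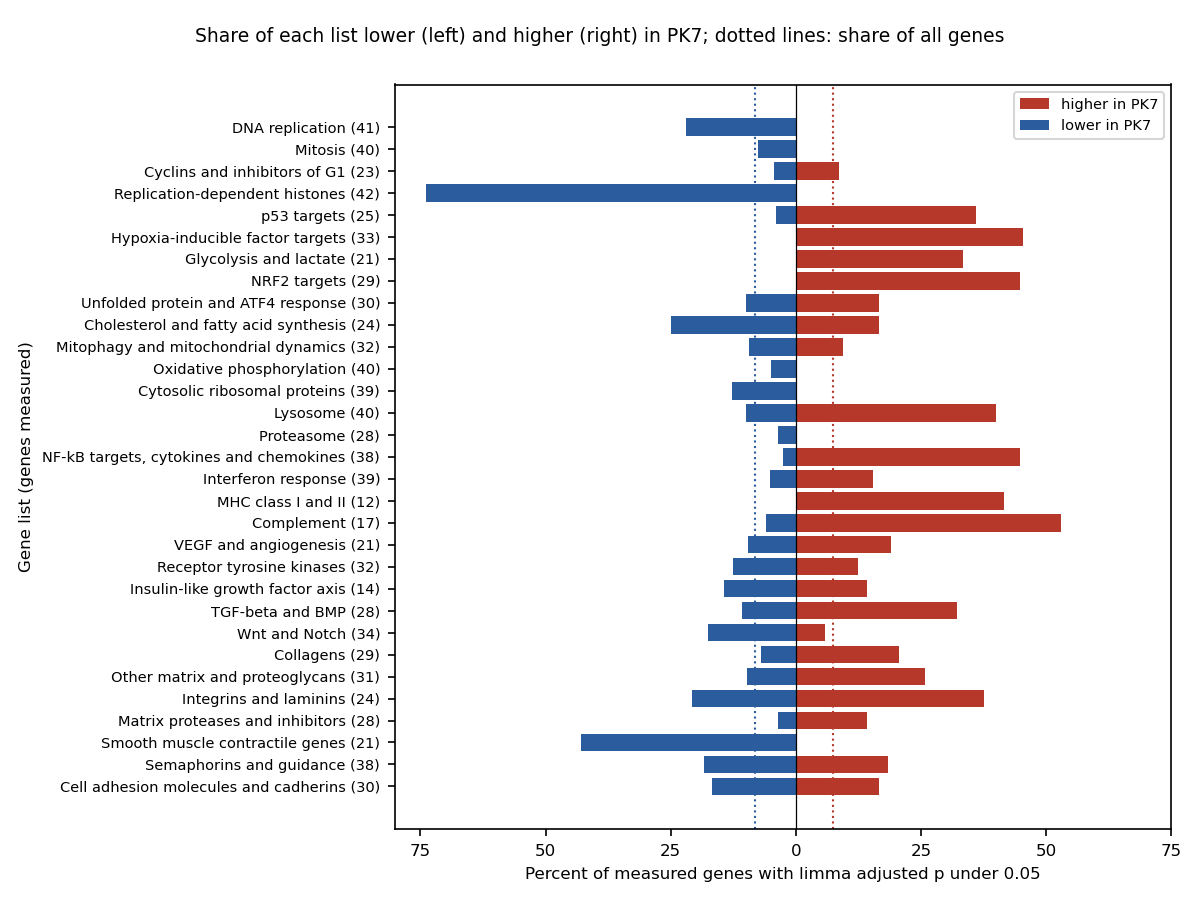
Share of the measured genes of 31 lists with a limma adjusted p under 0.05, lower in PK7 to the left and higher to the right, in percent; the number measured is in brackets and dotted lines mark the shares of all genes (8.1% and 7.35%). Complement (9 of 17), hypoxia-inducible factor targets (15 of 33) and NRF2 targets (13 of 29) extend furthest to the right, and replication-dependent histones (31 of 42) and smooth muscle genes (9 of 21) furthest to the left.

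DNA replication genes had 9 of 41 lower and a median of -0.34. The 3 called were CDC45, part of the replicative helicase, at -1.17, MCM5, another part of it, at -1.11, and POLD1, the catalytic subunit of DNA polymerase delta, at -1.10. CDC45 read 7.96, 7.51 and 7.94 in PK7 and 8.93, 8.93 and 9.06 in V22. MCM5 read 9.89, 9.34 and 9.95 against 10.93, 10.69 and 10.90. CDC45 and MCM5 lie on chromosome 22 among neighbours at -0.53 and -0.58, and POLD1 on chromosome 19 among neighbours at -0.22. MCM5 was at -0.92 without PK7 set 2. The list mean was 9.24, 8.74 and 9.25 in PK7 and 9.48, 9.35 and 9.49 in V22, with PK7 set 2 the lowest. Without PK7 set 2 the list median was -0.16 and 8 genes passed as lower.

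Mitosis genes had 3 of 40 lower and a median of -0.18. The share lower was close to the 8.1% of all genes, which include dim ones, whereas all 40 mitosis genes were expressed. The list mean was 9.65, 9.15 and 9.68 in PK7 and 9.66, 9.71 and 9.67 in V22, so that only PK7 set 2 was low. Without that array the median was -0.0037, with 1 gene higher and 1 lower, and 1 gene was lower without any 1 of V22 sets 4, 5 and 6. PTTG1, securin, fell by 0.61 (adjusted p = 0.0067), and by 0.49 with an adjusted p of 0.054 without PK7 set 2 and V22 set 5. CENPE, a kinetochore motor, fell by 0.74 (adjusted p = 0.043), and by 0.43 with an adjusted p of 0.1 without PK7 set 2. CENPE also no longer passed without any 1 of V22 sets 4, 5 and 6, at adjusted p-values of 0.083 to 0.12. Of the G1 cyclins, kinases and inhibitors, 2 of 23 were higher (1 without V22 set 4) and 1 lower (2 without PK7 set 1 or 3, 3 without V22 set 5), and the 2 called were CDK6, which rose by 1.08, and CCND1, cyclin D1, which read 10.48, 10.51 and 10.49 against 11.57, 11.50 and 11.57. The CCND1 values of each clone were nearly the same on its 3 arrays. With V22 sets 1 to 3 as the control CDK6 was at 0.86, under 2-fold.

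Replication-dependent histone genes, which supply new chromatin in S phase, had 31 of 42 measured members lower and a median of -0.59, and 3 were called. H3C11 read 11.12, 10.62 and 11.19 in PK7 and 12.34, 12.28 and 12.26 in V22. H4C4 and H4C13 fell by 1.16 and 1.03, and were at -0.825 and -0.838 without PK7 set 2. The count called was then 1, against 9 without PK7 set 3, 6 without PK7 set 1 and 2 without V22 set 5, where H4C13 was at -0.99. All 3 lie in the histone cluster of chromosome 6, where the medians of their neighbours were -0.61 to -0.59. The other list members belong to the same cluster, so these neighbours include list members and are no separate measure. The 49 expressed genes from TRIM38 to MDC1, around the cluster, had a median of -0.605. In V8 minus V22 of the first series those genes were at -0.577 and the histone list at -0.545. Whether the histone falls go beyond the shift of this region was not tested. With V22 sets 1 to 3 as the control the list median was -0.95 and 36 genes passed as lower. Histone genes share sequence, and their probe sets may cross-hybridise. Targets of p53 had 9 of 25 measured members higher and 1 lower (2 without PK7 set 3 or V22 set 5), with a median of 0.08. The called members were SPATA18, a mitochondrial quality control protein (1.93), EDA2R, a death receptor (1.76), RRM2B, the p53-inducible ribonucleotide reductase subunit (1.14), and POLH, the translesion polymerase, which fell by 1.00 among chromosome 6 neighbours at -0.45. POLH was not called without PK7 set 1, PK7 set 3 or V22 set 5.

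**Figure D4:**
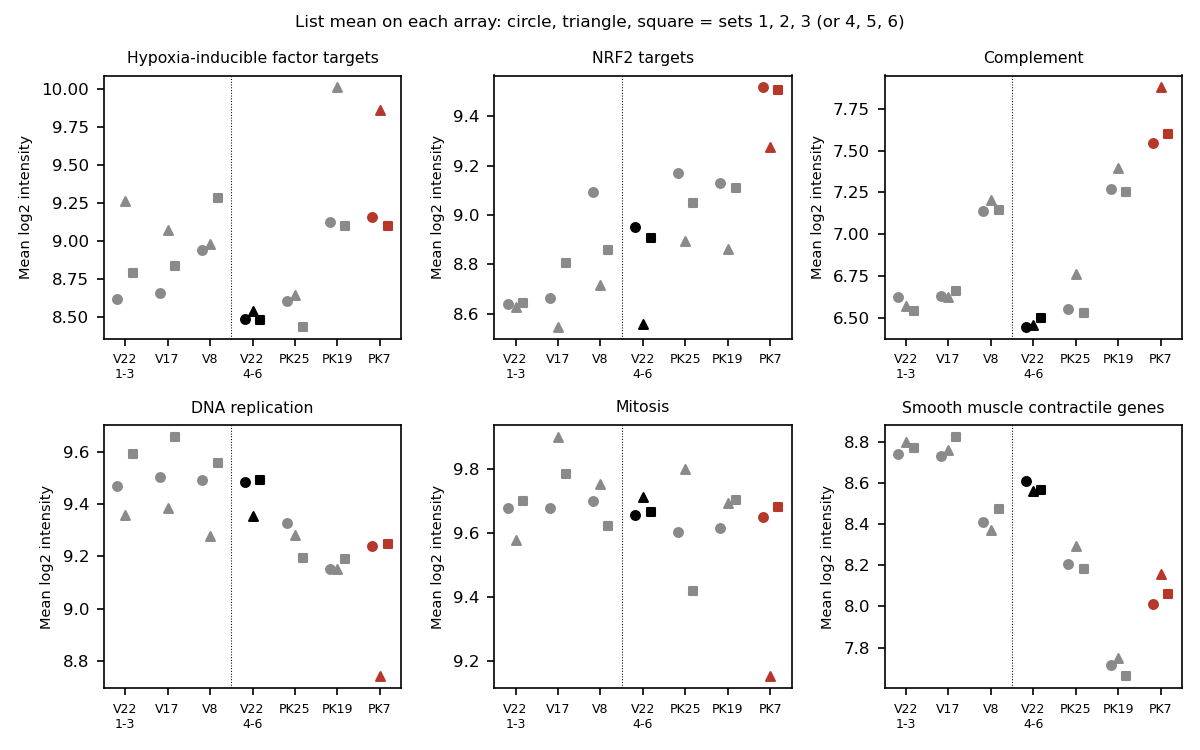
Mean log2 intensity of 6 lists on each of the 21 arrays, by clone. Circles, triangles and squares are sets 1, 2 and 3 (4, 5 and 6 for the second V22 group), PK7 is red, V22 sets 4 to 6 black, and the dotted line separates the first series from the second. In the mitosis panel PK7 set 2 (9.15) lies below the other PK7 arrays (9.65 and 9.68), and in the complement panel the PK7 arrays (7.55 to 7.88) lie above all others.

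Of 21 smooth muscle contractile genes measured, 9 passed as lower and 5 of these were called. The median was -0.17, and 8 of the 21 lay above 0. TAGLN, transgelin, read 5.80, 6.23 and 5.79 in PK7 and 8.22, 8.45 and 8.01 in V22. ACTA2, smooth muscle actin, read 9.31, 9.57 and 9.27 against 11.10, 11.10 and 11.00, and ACTG2, its gamma form, fell by 2.23. The clones were far apart in all 3. SMTN, smoothelin, fell by 1.21 and lies on chromosome 22 among neighbours at -0.58. The list mean was 8.01, 8.16 and 8.06 in PK7, 8.61, 8.56 and 8.57 in V22, and 7.72, 7.75 and 7.66 in PK19. In the first series it was 8.41, 8.37 and 8.47 in V8 and 8.74, 8.80 and 8.77 in V22.

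Matrix and adhesion genes moved in both directions. Collagens had 6 of 29 higher and 2 lower, and 5 were called (3 without PK7 set 2), among them COL5A2 at 1.70, COL12A1 at 1.51, COL5A1 at 1.26 (0.85 without PK7 set 2) and COL4A2 at 1.22. The count lower was 0 without any 1 of PK7 sets 1 and 3 and V22 sets 4 and 5, and 1 without V22 set 6. COL5A2, a chain of fibrillar type V collagen, read 9.35, 9.70 and 9.34 in PK7 and 7.77, 7.83 and 7.69 in V22. Other matrix genes had 8 of 31 higher and 3 lower. HAS2, which makes hyaluronan, read 5.69, 5.60 and 5.32 against 7.91, 7.31 and 8.02, and FBN2, fibrillin 2, fell by 1.73. Integrins and laminins had 9 of 24 higher and 5 lower: LAMA4, a laminin of blood vessels and muscle, rose by 2.29 and ITGA11 by 1.51, LAMB2 rose by 1.19 (0.85 without PK7 set 2), and ITGA10 fell by 1.46. Of these, 5 were called higher, and 3 without PK7 set 2. Matrix proteases and inhibitors had 4 of 28 higher and 1 lower, and after MMP3 the inhibitor TIMP4 rose most, by 1.78. Genes of TGF-beta and BMP signalling had 9 of 28 higher and 3 lower. TGFBI, a matrix protein induced by TGF-beta, read 12.45, 13.10 and 12.41 against 10.89, 10.75 and 10.85. TGFB2 rose by 1.33 and ID3 by 1.26 (0.90 with V22 sets 1 to 3, under 2-fold). LTBP1, which tethers latent TGF-beta in the matrix, read 8.49, 8.71 and 8.36 against 10.29, 10.47 and 10.28.

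Lists of guidance, adhesion and growth factor genes had members in both directions. Semaphorins and their receptors had 7 of 38 higher and 7 lower, but 4 of the 5 called were lower: PLXNA4 by -2.44, SEMA6D by -2.44, SEMA3A by -2.10 and PLXNA2 by -1.40. SEMA3A, a repellent of growing axons, read 7.42, 6.89 and 7.53 in PK7 and 9.53, 9.11 and 9.50 in V22. Adhesion molecules had 5 of 30 higher and 5 lower, with FLRT2 up by 2.44, NCAM2 at -2.49 and CHL1 at -1.89. Receptor tyrosine kinases had 4 of 32 higher and 4 lower, with EPHB1 up by 1.59 and PDGFRA at -1.35. The count higher was 1 without PK7 set 2, V22 set 4 or V22 set 6 and 2 without PK7 set 1 or V22 set 5. VEGF and angiogenesis genes had 4 of 21 higher and 2 lower. KDR, the main receptor of VEGF, read 6.88, 6.06 and 6.88 against 9.09, 8.63 and 8.88. Genes of the insulin-like growth factor axis had 2 of 14 higher (1 without V22 set 4, 5 or 6) and 2 lower (1 called, 2 without PK7 set 3). IGFBP5 fell by 1.53, and IGFBP4 read 8.29, 10.41 and 8.25 against 7.44, 7.70 and 7.42, so that its rise of 1.47 (adjusted p = 0.042) was 0.75 without PK7 set 2, and its adjusted p was 0.12 without V22 set 4, 0.08 without V22 set 5 and 0.12 without V22 set 6. Wnt and Notch genes had 2 of 34 higher and 6 lower (3 without PK7 set 3 or V22 set 4), with DKK3, a secreted Wnt modulator, up by 1.38 and JAG1, a Notch ligand, at -1.31. With the median over all probe sets of a gene, DKK3 was at 0.80, under 2-fold.

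Lists of glioma lineage and of other cell types were compared the same way. Mesenchymal glioma genes had 10 of 22 higher (5 without V22 set 5, 6 without V22 set 4) and 2 lower and a median of 0.27, with CHI3L1, THBS1 and LOX called. Proneural glioma genes had 3 of 19 lower, with PDGFRA called (2 called without V22 set 5). Of 15 astrocyte and neural stem markers, 1 (CD44) was higher and 3 were lower, among them SOX9 at -0.58. HOX genes had 2 of 24 lower (HOXD8 and HOXC5 at -0.76 and -0.75, the latter with an adjusted p of 0.051 without V22 set 6), and transition factors 2 of 16 lower (PRRX1 and ZEB1 at -0.70 and -0.68). Cancer-testis antigens had 2 of 21 higher, with MAGED1 called at 1.07 (0.93 without PK7 set 2, and 2 called without PK7 set 3). ABC transporters and aldehyde dehydrogenases had 5 of 24 higher and 1 lower, among them ALDH2 at 2.24. ALDH2 read 8.19, 8.35 and 8.23 in PK7 and 6.15, 5.97 and 5.93 in V22.

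Markers of other cell types were mostly dim, and most did not pass the test. Of 15 neuron markers 1, MAP2, rose (1.71). Of 11 endothelial markers PECAM1 was higher by 0.43 (adjusted p = 0.046). It was dim at 4.88, 5.17 and 4.96 against 4.47, 4.60 and 4.66, and it no longer passed in all 6 leave-one-array-out fits and with a replicate block (adjusted p = 0.054). ERG, another endothelial marker, had an adjusted p of 0.13, and of 0.021 without PK7 set 1. Of 11 epithelial markers KRT8 was higher by 0.55. EPCAM, an epithelial adhesion molecule, read 5.25, 4.53 and 5.36 against 4.79, 4.53 and 4.60 (adjusted p = 0.19, and 0.0041 without PK7 set 2). Limma passed 0 of 7 oligodendrocyte, 0 of 13 blood and microglia, and 0 of the 3 9p21 genes, with 1, 1 and 0 at an unadjusted p under 0.05. With limma's trend and robust options 1 oligodendrocyte marker passed as lower, and 0 of the other 2 lists. This was UGT8, an enzyme of myelin lipids, at -0.40, with an adjusted p of 0.063, of 0.042 with a replicate block and of 0.03 without PK7 set 3. Of 12 fibroblast and pericyte markers, 2 were higher (0 without V22 set 6 and 1 without any other array), with FAP called at 1.40 (adjusted p = 0.021). FAP read 9.54, 10.53 and 9.49 against 8.38, 8.63 and 8.35. Without PK7 set 2 its difference was 1.06 with an adjusted p of 0.094, and without V22 set 4 or V22 set 6 its adjusted p was 0.071 or 0.074. The list mean was 6.81, 7.32 and 6.82 in PK7 and 6.59, 6.50 and 6.50 in V22. The part of other cells in the result was not tested.

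Differences between PK7 and V22 were also ordered by position, over 172 runs of about 50 neighbouring genes with a mean log2 value above 7 (8717 genes). Neighbouring genes were often shifted the same way. Counts per chromosome are out of these expressed genes. Dim genes passed less often, so the 8.1% lower and 7.35% higher of all genes are too low a base for these counts. Chromosome 22 had a median of -0.54 over 207 genes, with 138 passing as lower and 1 as higher. Its 4 runs had medians of -0.59 to -0.50. On chromosome 6, 168 of 439 genes passed as lower, and the 5 runs from EXOC2 to PRIM2 had medians of -0.61 to -0.44. Chromosome 19 had 194 of 578 genes lower, and its last run, HSPBP1 to CENPBD2P, had a median of -0.59. Chromosome 21 had a median of -0.31. In the other direction, chromosomes 9 and 16 had medians of 0.18 each, and the first 2 runs of chromosome 12, where C1S, C1R and ENO2 lie, 0.35 and 0.31. In all, 18 runs were at or below -0.3 and 3 at or above 0.3. In the run PHF1 to RPL7L1 of chromosome 6 the 3 PK7 arrays gave -0.57, -0.67 and -0.53 and the V22 arrays 0.02, -0.07 and 0.04, around the V22 mean. The arrays of each clone were close and the clones apart.

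The runs of other clones differed. Set beside V22 of its own series, V8 had medians of -0.58 to -0.44 over the same 5 runs of chromosome 6, of -0.23 to -0.19 over the 4 runs of chromosome 22, and of 0.54 and 0.66 over the first 2 runs of chromosome 12. Against V22 sets 4 to 6, which all these comparisons share with PK7, the run PHF1 to RPL7L1 was at -0.79 in PK19 and 0.006 in PK25, and the chromosome 22 run GRK3 to FOXRED2 at 0.02 in PK19 and -0.27 in PK25, against -0.59 in PK7. Copy number was not analysed here.

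**Figure D5:**
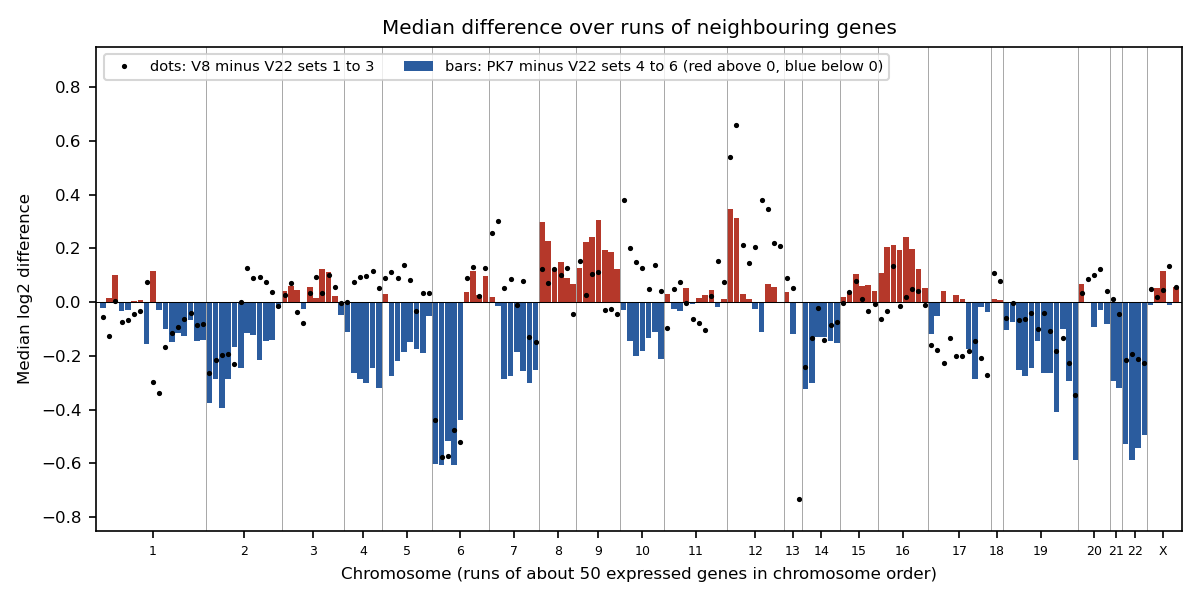
Median log2 difference over 172 runs of about 50 expressed genes, in chromosome order. Bars are PK7 minus V22 sets 4 to 6 and dots are V8 minus V22 sets 1 to 3. Bars on the first part of chromosome 6 and on chromosome 22 lie near -0.5 to -0.6, and the first 2 bars of chromosome 12 rise to 0.35 and 0.31, below the dots.

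The vector clones gave the background of differences between clones. V8 against V22, on 6 arrays that the main comparison does not use, had 215 genes called (1.17%), 127 higher (0.691%) and 88 lower (0.479%), and V17 against V22 had 0 called by limma, with 427 genes at an unadjusted p under 0.05 and 0 called with the trend and robust options. Of the genes called in PK7 against V22, 110 were called in the same direction in V8 against V22. These were 21% of the PK7 calls and 51.2% of the V8 calls, and 3 genes were called in opposite directions. The arrays were separate but the clone V22 was common to both. IL13RA2, C3, C1S, MMP3 and CXCL8 were higher in V8 than in V22 by 5.86, 3.00, 3.16, 2.96 and 2.80, and TAGLN, HSD17B2 and GABRA3 were at -1.92, -1.91 and -3.08.

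PK7 was then set against the other parkin clones, which share their series. Against PK19, 550 genes were called (2.99%), 307 higher (1.67%) and 243 lower (1.32%) in PK7. Against PK25, 428 were called (2.33%), 318 higher (1.73%) and 110 lower (0.599%). Against V22, PK19 had 636 called (3.46%) and PK25 41 (0.223%), and these comparisons share the V22 arrays. The genes that rose most in PK7 were not all high in the other parkin clones. C1S averaged 9.79 in PK7, 9.89 in PK19 and 5.26 in PK25, and C3 10.22, 8.93 and 6.30. TUSC3, EMILIN2, TNFRSF9 and HLA-DQA1 averaged 10.10, 9.27, 9.39 and 8.63 in PK7, against 6.41, 5.92, 5.69 and 5.64 in PK19. The list of hypoxia-inducible factor targets had medians of 0.78, 0.88 and 0.05 in PK7, PK19 and PK25 minus V22, and complement 0.54, 0.24 and 0.02.

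Genes on which PK7 stood apart from all 3 of V22, PK19 and PK25, called against each in the same direction, numbered 98 above and 32 below. These were out of 18374 genes tested, of which 523 (2.85%) were called against V22 alone. GALNT5, an enzyme that starts O-linked glycans, read 10.40, 10.66 and 10.43 in PK7 and averaged 7.84 in V22, 4.67 in PK19 and 7.82 in PK25. MAMDC2, a matrix proteoglycan, averaged 8.09 in PK7 and 5.43, 5.32 and 5.25 in the others. CEMIP, a hyaluronan-degrading protein, read 7.72, 8.75 and 7.66, with PK7 set 2 highest, and averaged 5.58, 5.77 and 5.26. HAS2, which makes hyaluronan, averaged 5.54 in PK7 and 7.75, 9.20 and 8.64 in the others. CEMIP and HAS2 were both picked for standing apart in PK7. HAS3, another hyaluronan synthase, differed from V22 by 0.083 (adjusted p = 0.73), and hyaluronan turnover was not tested. HGF, the ligand of the MET receptor, read 7.67, 6.60 and 7.55 in PK7 and averaged 8.83, 9.41 and 8.89. STEAP1B read 6.74, 5.07 and 6.02, and averaged 7.88, 8.34 and 7.94 in the others.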

How the data were processed

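Expression was measured on Affymetrix whole-transcript gene arrays. The authors deposited 1 table of 26947 probe sets on 21 arrays, as linear RMA intensity. RMA is named in the submitters' processing notes without a version, and a joint normalization of all arrays is not given in the sources used here. Log2 of the deposited intensity was used. Arrays have no counted depth, so their number limits the precision.

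Genes were named from the array's annotation table: 19305 probe sets had 1 symbol, and per gene the 1 with the highest mean over all arrays was kept (18374 genes). Chromosome order came from RefSeq, GRCh38.p14. In R 4.3.3, limma 3.58.1 (lmFit, eBayes) was fitted to the 12 arrays of PK7, PK19, PK25 and V22 sets 4 to 6, with 1 term per clone, and to the 9 arrays of the other series, with Benjamini-Hochberg adjustment over all probe sets. On simulated data with 26947 probe sets, 89% of log2 changes of 1.25 and 99% of log2 changes of 2.0 were called in PK7 against V22. Differences are PK7 minus V22, and errors are limma standard errors.

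Named genes were the 15 largest rises and 15 largest falls with arrays apart and a higher clone mean of at least 8, up to 4 called genes per list (or the 2 with the smallest p where none was called), the 8 highest and 8 lowest genes on which PK7 stood apart from V22, PK19 and PK25, and 6 genes that check the line. The members and the 45 lists were chosen with earlier results of these data known. The running numbers in the array file names were taken to pair PK7 sets 1, 2 and 3 with V22 sets 4, 5 and 6: deviations from the clone means correlated at 0.31, 0.405 and 0.314 within pairs, and at -0.385 to 0.32 between sets of different pairs. PK7 sets 1 and 3 correlated at 0.32 and 0.245 with each other's V22 set, so the values single out only the pair of set 2 and set 5. A fit with this replicate block called 537 genes, including all 523. Alternatives changed the arrays, the normalization, the filter, the fold threshold and the probe set rule, and left out each array.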

Additional observations from a re-analysis of the deposited data

Results flagged for a closer look

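PK7 stood apart from V22, PK19 and PK25 together in 98 genes above and 32 below. With a highest clone mean of at least 8 there were 53 above and 21 below. The 16 named here are the 8 highest and 8 lowest of these, so that being called against all 3 clones was the rule of choice. The smallest of the 3 log2 differences was 3.69 for TUSC3, 3.12 for EMILIN2, 2.87 for TNFRSF9, 2.79 for HLA-DQA1, 2.67 for MAMDC2, 2.65 for GALNT5, 2.41 for FADS2 and 2.27 for CEMIP. Below the other clones it was -2.74 for ELAPOR2, -2.24 for CADPS, -2.21 for HAS2, -1.94 for STEAP1B, -1.91 for EPHA5, -1.57 for ADAMTS18, -1.56 for LTBP1 and -1.56 for HGF. Among probe sets without a single gene symbol, which the gene counts leave out, 67 of 7642 were called between PK7 and V22, 38 higher and 29 lower. Of the genes, 523 of 18374 (2.85%) were called.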

How the results depend on the processing

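The 523 calls became 1525 at a 1.5-fold threshold and 2840 with no fold threshold, with 48.2% and 47.6% of them higher instead of 62.9%. Under the other planned settings the count was 390 to 566, and leaving out 1 array gave 446 to 581. The replicate block by file number gave 537 calls. By set number it gave 558 against 550 for PK7 against PK19, whose sets correlated at 0.316, 0.513 and 0.472, and 437 against 428 for PK7 against PK25, whose sets correlated at 0.352, 0.256 and -0.0451. In the first series it gave 221 against 215 for V8. Of the 131 named genes over all settings, 2138 values kept direction and side of an adjusted p of 0.05, 63 no longer passed it, 14 newly passed and 7 changed sign. Of the 104 named genes called at 2-fold, 15 lost that call when 1 array was left out (14 of them without PK7 set 2), 10 with V22 sets 1 to 3 and 1 with arrays centred. Medians of the 45 lists stayed within the spread between arrays in 710 values and moved beyond it in 55, among them 11 lists with V22 sets 1 to 3, 8 with arrays centred and 6 without PK7 set 2. The replicate block changed the side of the adjusted p of ATP5PO, PECAM1 and UGT8 and of no other named gene. The sign changes were in values near 0: CDKN2B at 0.067 with V22 sets 1 to 3, CDKN2A at -0.157 to 0.048 when 1 array was left out, and GFAP at -0.008 after quantile normalization, -0.014 with arrays centred, -0.061 without PK7 set 2 and V22 set 5 and -0.045 to 0.076 when 1 array was left out. The cause was not tested. With 3 arrays of 1 clone on each side, no setting separates the construct from the clone.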
